A study of Homo sapiens with 6 samples.

Results

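Cytidine sites read mainly as T after borohydride treatment were described in PANC-1, an established line of human pancreatic cancer, with and without depletion of the acetyltransferase NAT10. A site belonged to the set when its reference base was C and when T reads, summed over the 3 treated libraries of its group, exceeded both A reads and G reads. Of 394 cytidine sites among 1352 listed sites, 223 met this rule in control cells, and 156 of 292 cytidine sites among 1001 listed sites met it in NAT10-KD cells. The members were thus chosen by their own reads, so that the dominance of T, its share and the level at these sites are descriptions and not findings.

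The groups were 3 control and 3 NAT10 knockdown samples of PANC-1, numbered 1 to 3, and the labels name both an siRNA and an shRNA for the depletion. Each sample gave a library of mRNA treated with sodium borohydride (NaBH4) and an untreated library, 12 in all. A site was listed where every treated library of the group held at least 3 mismatched reads and every untreated library held none, and each group had a table of its own. The labels do not say whether the 3 samples of a group were separate cultures, so p-values measured only the spread between these samples.

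N4-acetylcytidine (ac4C) is an acetylated cytidine that NAT10 writes on rRNA, tRNA and, as reported, mRNA, where it has been connected with RNA stability and translation. NaBH4 reduces ac4C to a form that pairs differently during reverse transcription, so that the position is read as T in the cDNA. C-to-T is therefore the change on which this chemistry is built, while C-to-G and C-to-A are not, and deaminated cytidines or sequencing errors can also give T.

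The sequence around a member could be read for the 23 sites (17 in control, 6 in NAT10-KD) that lay in a window from 250 bases before to 50 bases after a RefSeq gene start on GRCh38.p14. All 103 listed sites in such windows, of any base, carried the listed base on the listed strand. Of the 23 members, 8 are shown, because they lie in genes the study followed (ITGB5, KDM4A), had the highest levels of their group among sites with 10 bases on each side (DNM2, ACTL6A, ACTR3, UBXN4) or the lowest (TYMS). Each is written 5′ to 3′ on the strand of the site, with the member cytidine in capitals.

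ITGB5 (chr3:124796404-124796424, minus strand, control): ttctcctgtgCcaggaacaag
KDM4A (chr1:43667898-43667918, plus strand, control): ccagaagcagCtgagtttctt
DNM2 (chr19:10718103-10718123, plus strand, control): tgaggccgagCcgggagcggg
ACTL6A (chr3:179576875-179576895, plus strand, control): cctcaggttaCgaggtcttgg
TYMS (chr18:657681-657701, plus strand, control): acttggcctgCctccgtcccg
ACTR3 (chr2:113890057-113890077, plus strand, NAT10-KD): cggggcagggCggggactgcc
Before UBXN4, first site (chr2:135741839-135741859, plus strand, NAT10-KD): ggccgcagagCcggacgaaga
Before UBXN4, second site (chr2:135741840-135741860, plus strand, NAT10-KD): gccgcagagcCggacgaagac

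The window of the ITGB5 site was that of a neighbouring locus inside ITGB5, and the KDM4A and ACTL6A sites likewise lay in windows of other loci. The DNM2 and TYMS sites lay 34 and 38 bases after the start of their own gene, and the adjacent sites named by UBXN4 lay 6 and 5 bases before its RefSeq start, outside any gene span. Over the 23 members, 14 cytidines were preceded by G (60.9%), against 15 of the 24 other listed cytidines in such windows (62.5%) and 30.6% of every cytidine in the windows. A G followed the cytidine at 11 of the 23 members (47.8%), at 13 of the 24 other listed cytidines (54.2%) and at 19.8% of all window cytidines. The letters CCG, with the site as the middle base and read on the site's strand, occurred at 3 of 23 members (13.0%), at 1 of 24 other listed cytidines (4.17%) and at 6.96% of all window cytidines. A cytidine 3 bases after the site, as in CNNC, was present at 7 of 23 members (30.4%), at 6 of 24 other listed cytidines and at 32.4% of all window cytidines. Most bases of a window lie before the gene start (250 against 50), so all window cytidines are no matched background for sites read from mRNA. These counts are small and were not tested, and a match of letters is a description only.

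The members were spread over 19 chromosomes in each group. The site lists used here held no sites on chromosomes 7, 8, X and Y and no cytidines on chromosome 9. They may be incomplete, so all counts of sites and genes refer to the remaining chromosomes. In control cells 186 of the 223 sites lay within a gene and in its direction, 33 in a gene whose strand the tables did not give, 2 opposite to the only gene there and 2 outside any gene. In NAT10-KD cells these counts were 134, 18, 0 and 4 of 156. Exons, introns and UTRs were not analysed here, so each place is a gene span. Along the gene span, introns included and read in the gene's direction, the final 25% of the span held 67 of 186 control members (36.0%) and 66 of 134 NAT10-KD members (49.3%), against 60 of 139 (43.2%) and 53 of 104 (51.0%) of the other cytidines. No member lay in a miRNA hairpin of RefSeq.

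The C-to-T level, the percentage of treated reads at a site that carried T, was low at most members. The median over sites of the mean level of the 3 libraries was 1.40% in control cells, with a range from 0.392% to 18.6%, and 1.58% in NAT10-KD cells, with a range from 0.530% to 14.6%. Levels under 1% were found at 48 control and 30 NAT10-KD members, levels from 1% to under 2% at 100 and 66, levels from 2% to under 5% at 60 and 47, and levels of 5% or more at 15 and 13. A member held a median of 11 T reads in either group, from 4 to 33 in control and from 5 to 25 in NAT10-KD cells, out of a median of 724 and 729.5 treated reads. The level therefore rested on few reads at nearly every site, and intervals given for single sites cover counting error only.

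Level fell as depth rose across the members, and the part of the listing rule in this was not tested. Across sites, Spearman's rho between mean level and treated reads was -0.78 in control (223 sites) and -0.84 in NAT10-KD (156 sites), with read depth present in both measures. Exactly 3 mismatched reads, the least that a listed library could hold, were found in 224 of the 669 member-by-library values of the control (33.5%) and in 153 of the 468 of NAT10-KD cells (32.7%). The 15 control members at 5% or more had between 68 and 287 treated reads in all, and the 13 NAT10-KD members between 54 and 296.

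**Figure D1:**
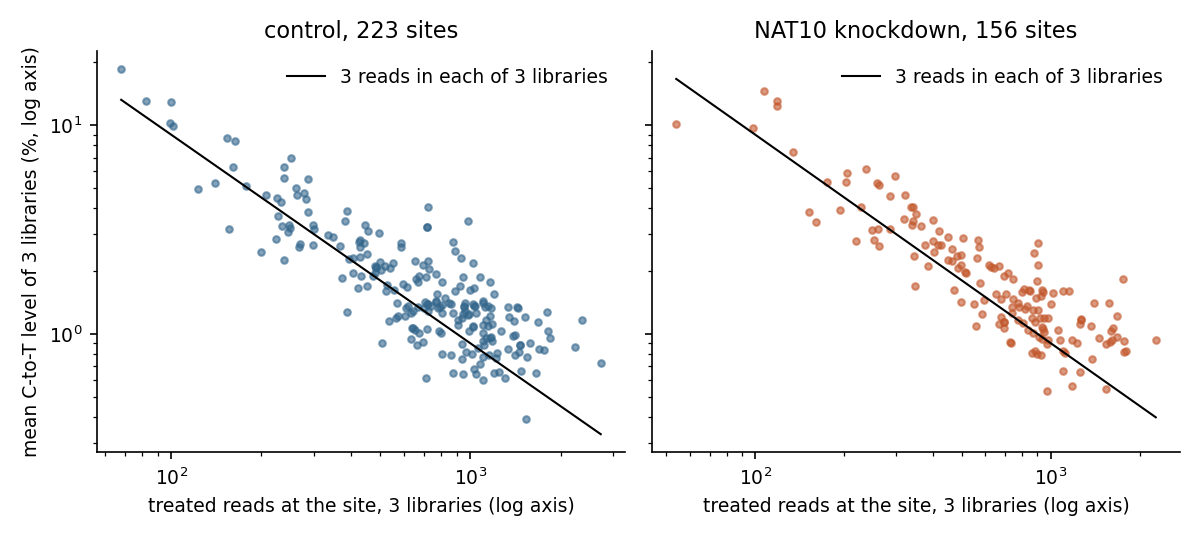
Mean C-to-T level of the 3 treated libraries (percent of reads, log axis) against the treated reads at the site summed over 3 libraries (log axis), 1 point per member, control on the left and NAT10 knockdown on the right. The line is the level that 3 T reads in each of 3 equally deep libraries give; the points follow it in both groups (Spearman's rho -0.78 and -0.84).

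These counts over libraries describe reads that the rule used. T was seen in every treated library at 195 of 223 control members (87.4%) and at 136 of 156 NAT10-KD members (87.2%), and it led in every library at 130 (58.3%) and 96 (61.5%). No other base than T replaced C at 71 control (31.8%) and 57 NAT10-KD members (36.5%). At the edge of the rule, 16 control and 9 NAT10-KD members led by a single read, 15 and 12 cytidines outside it were tied, and 14 and 11 missed by 1 read. SRRM2 (13 T, 12 A and 1 G reads in control) lay just inside, and BAG6 (10 T and 10 G reads in control) just outside.

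To ask whether T led in reads that had not chosen the sites, the rule was applied to 2 treated libraries and read in the third. Among sites so chosen, T led in the held-out library at 70.3%, 79.3% and 75.9% in control, against 23.8%, 32.0% and 28.1% of the remaining cytidines. In NAT10-KD cells the shares were 78.3%, 74.7% and 78.9%, against 23.0%, 20.1% and 25.5%. Chosen sites were thus above the remaining cytidines in all 6 libraries, and the groups overlapped, with means of 75.2% ± 4.58 and 77.3% ± 2.29 (SD, 3 libraries each, exact permutation test, two-sided, p = 0.7). The gap between chosen and remaining cytidines, examined after the shares were seen, was 47.2 ± 0.708 points in control and 54.4 ± 0.997 in NAT10-KD. The gaps did not overlap (exact permutation p = 0.1, the smallest that 3 libraries a group allow). Each library also helped to choose sites for the others of its group. The 3 values of a group are therefore not fully independent, and their SD may understate the spread.

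The same procedure was run for the other base changes, whose sites come from the same tables. By this share C-to-T took rank 4 of the 12 changes in control and rank 5 in NAT10-KD cells. T-to-G, a change not compared with C-to-T below, took rank 3 in control (mean 78.7%) and rank 1 in NAT10-KD (80.4%). Its mean over 6 libraries was 76.2%, against 76.0% for C-to-G, a difference of 0.21 points with C-to-T higher in 3 of 6 libraries (exact sign-flip p = 0.969, adjusted 0.969). It was 3.27 points below G-to-A, lower in 5 of 6 libraries (exact p = 0.344, adjusted 0.458), and 6.18 points below G-to-T, lower in 5 of 6 (exact p = 0.0625, adjusted 0.125). It was 10.9 points above A-to-G, higher in 6 of 6 (exact p = 0.0312, the smallest that 6 libraries allow, adjusted 0.125). None of the 4 comparisons passed after Benjamini-Hochberg adjustment, which covers these 4 only. The remaining changes were not tested against C-to-T. The held-out libraries of a group share the reads that chose the sites, so the 6 values are not fully independent.

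**Figure D2:**
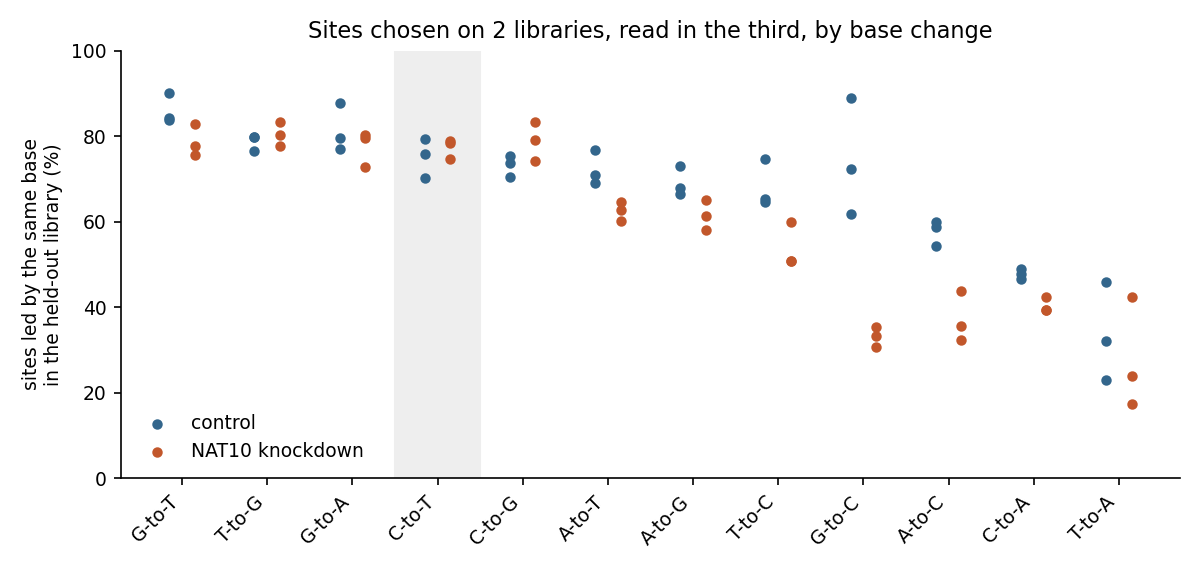
Share of sites (percent) led by the same base in the held-out library, for sites chosen on the other libraries, by base change; 1 point per held-out library, 3 per group, with C-to-T on grey. C-to-T points lie between 70.3% and 79.3%, overlapping those of C-to-G and G-to-A.

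By the listing rule the untreated RNA carried no mismatched read at any member, over 127938 untreated reads in control and 99706 in NAT10-KD cells. A count of 0 allows up to 3 reads, a limit of 0.617% at the median control member (486 untreated reads) and of 0.497% at the median NAT10-KD member (603.5 reads). The summed C-to-T level was above this limit at 215 of 223 control members and at 155 of 156 NAT10-KD members. Over all cytidine sites the same was true of 65.7% in control and 70.2% in NAT10-KD, and since T reads define both counts, nothing is read from the difference. Single libraries were shallower: the level was above the limit of the matching untreated library at 67, 82 and 86 of the 223 control members and at 74, 76 and 77 of the 156 NAT10-KD members.

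NAT10-KD cells had 156 members against 223, a ratio of 0.700 (95% exact Poisson interval 0.566 to 0.862, counting error only). The ratio was 0.741 for all cytidine sites and 0.795 for the cytidines not read mainly as T. T-read sites were 56.6% of control cytidines (95% Wilson interval 51.7% to 61.4%) and 53.4% of NAT10-KD cytidines (47.7% to 59.1%). These intervals cover counting error only and take sites as separate, so they do not compare the groups. Within single libraries T led at 50.0%, 57.6% and 54.3% of control cytidines and at 52.7%, 49.7% and 52.4% of NAT10-KD cytidines, a difference of -2.38 points that lay within the spread (54.0% ± 3.82 against 51.6% ± 1.69, n = 3, exact permutation p = 0.4). Depth differed beside this count: untreated reads per member were higher in NAT10-KD cells, with library medians of 198, 187 and 185 against 146, 171 and 176, and the part of depth in the count was not tested.

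The median C-to-T level of the members was 1.41%, 1.40% and 1.47% in the control libraries and 1.51%, 1.60% and 1.63% in the NAT10-KD libraries. The groups did not overlap, and the level at the NAT10-KD members was higher by 0.15 points (1.43% ± 0.038 against 1.58% ± 0.066, SD over 3 libraries). A two-sided exact permutation test gave p = 0.1, which is the lowest value possible with 3 libraries per group. With at least 100 reads in every treated library the difference in medians fell to 0.088 points (1.28% against 1.37%, exact permutation p = 0.2). The mean level over sites was 2.21%, 2.23% and 2.05% in control and 2.29%, 2.27% and 2.35% in NAT10-KD, again without overlap (difference 0.14 points, exact permutation p = 0.1). Without members within 10 bases of another listed site the mean turned to 2.03% in control and 1.91% in NAT10-KD (exact permutation p = 0.4), and with at least 100 reads in every treated library the difference was 0.055 points (exact permutation p = 0.4). Pooling the reads gave 1.45%, 1.48% and 1.43% against 1.49%, 1.51% and 1.44%, values that overlap (exact permutation p = 0.4). Each group was read at its own sites, so a difference in level also carries a difference in which sites were listed and in their depth, which cannot be told apart here. The T reads behind these levels also chose the members, so the p-values describe the 2 lists and do not test the knockdown.

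**Figure D3:**
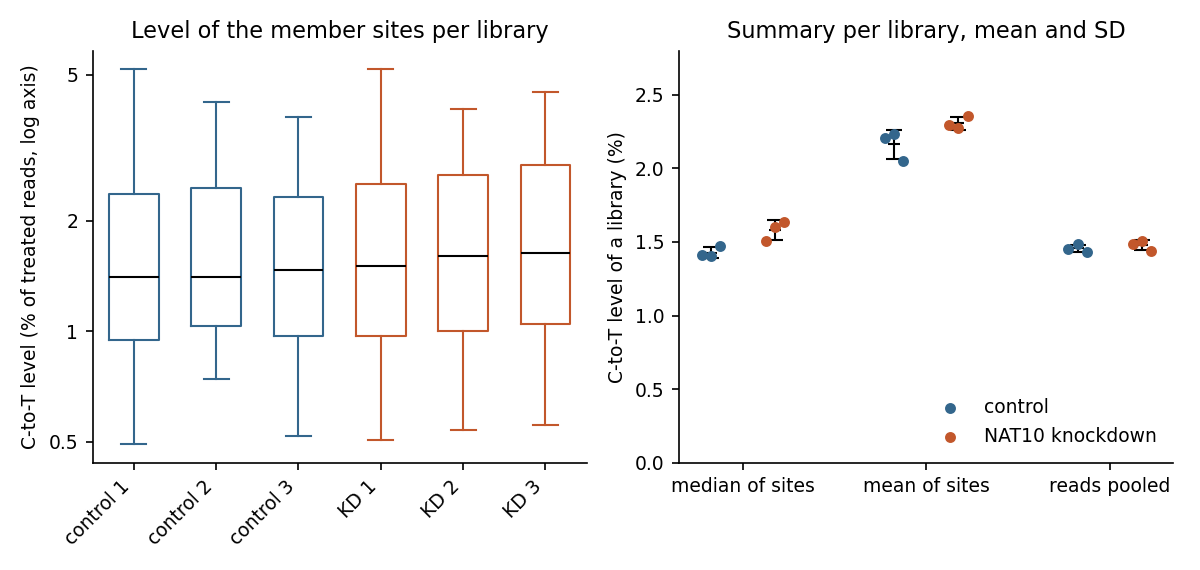
Left, C-to-T level of the members in each treated library (percent of reads, log axis): box, quartiles; line, median; whiskers, 10th to 90th percentile. Right, each library's median over sites, mean over sites and pooled level (points) with the mean and SD of 3 libraries; the median and mean are higher in the NAT10 knockdown libraries, and the pooled levels overlap.

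T made up 81.0%, 83.1% and 81.9% of mismatched reads at the control members and 81.1%, 82.7% and 83.2% at the NAT10-KD members (exact permutation p = 0.7). A and G divided the remainder about evenly, at 8.90% ± 0.672 and 9.12% ± 0.42 in control and at 8.57% ± 0.831 and 9.08% ± 0.68 in NAT10-KD (SD, n = 3). The reads behind the T share also chose the members, so its p-value describes the lists of the groups only.

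No member position was shared between the groups, and no member of a group was listed, under any base, in the table of the other. The tables as a whole shared 1 position, a cytidine that was no member. Members fell in 204 genes in control and 147 in NAT10-KD, with 7 in common (3.43% and 4.76%): LMNB2, NAT10, NOMO2, NUMA1, SIRT7, SMG5 and TMEM259. All cytidine sites had 21 genes in common (6.07% of control and 8.43% of NAT10-KD genes) and all listed sites 199 (18.7% and 24.6%), and these shares also depend on how many genes each set holds. The positions within a shared gene were 366 bases apart in SIRT7, a nuclear deacylase, 2972 in TMEM259 and 33192 in SMG5, a factor of nonsense-mediated decay. NOMO2 has near-identical copies, so its reads could be split between them. A site missing from a table was not necessarily unread as T there: it could have failed the listing rule in 1 library.

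The transcript of NAT10 itself held a member in each group, at chr11:34127524 in control and at chr11:34146119 in NAT10-KD, both on the plus strand and 18595 bases apart. In control the T reads were 3 of 80, 3 of 114 and 6 of 87 (4.43% ± 2.21, SD, n = 3). In NAT10-KD cells they were 5 of 317, 1 of 407 and 3 of 655 (0.760% ± 0.715), and without replicate 1 the mean was 0.352%. The positions differ, so the values do not compare the groups, and reads at separate positions give no measure of the depletion.

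The genes of adhesion and actin that the study followed were represented by few sites. ITGB5, which encodes the beta5 integrin chain, carried T in 6 of 501, 3 of 496 and 3 of 458 control reads at chr3:124796414 (0.819% ± 0.329), the site whose sequence is given above. BCAR1, a docking protein of focal adhesions, had 5 of 382, 7 of 383 and 2 of 400 T reads in control (1.21% ± 0.669). DIAPH1, a formin that extends actin filaments, had 4 of 209, 5 of 187 and 4 of 222 in NAT10-KD cells (2.13% ± 0.474). JUN and PPP1R12C, which the study also named as candidates of this pathway, had no member in either group. Of the 96 genes of the focal adhesion and actin list, 4 had a member in control (BCAR1, ITGA5, ITGB5 and LAMA5) and 2 in NAT10-KD (DIAPH1 and ITGA3), where 9 and 5 had a cytidine site and 19 and 11 a listed site of any base. Over all genes, 204 had a member in control and 147 in NAT10-KD, where 346 and 249 had a cytidine site and 1065 and 809 a listed site. At ITGA5, the alpha chain of a fibronectin receptor, control replicate 1 had no T read in 168, while the others had 5 of 146 and 4 of 165.

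Genes of DNA repair, helicases and histone demethylases, a list of 81, had members in 7 genes in control and 1 in NAT10-KD, against 10 and 2 with any cytidine site and 18 and 12 with any listed site. The control genes were DHX16, DHX30, ENDOV, KDM4A, MBD4, XRCC1 and XRCC5, and the NAT10-KD gene was DDX41. Beside this, 204 of all 346 genes with a cytidine site had a member in control, and 147 of 249 in NAT10-KD. The list was not tested. KDM4A, a demethylase of histone H3 lysines, held members at chr1:43703632, with T in 5 of 163, 2 of 171 and 2 of 139 reads, and at chr1:43667908, with T in 4 of 363, 3 of 405 and 12 of 427 reads. At the latter, replicate 3 held most of the T reads (1.55% ± 1.11). MBD4, a glycosylase that removes T mispaired with G, had no T read of 123 in replicate 1, then 4 of 131 and 3 of 119 (1.86% ± 1.63). The helicase DHX30 had 1 of 204, 4 of 197 and 3 of 207 (1.32% ± 0.778). XRCC5, the larger Ku subunit of end joining, had 10 of 309, 4 of 369 and 5 of 394 (1.86% ± 1.19).

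Among 74 enzymes and readers of RNA modification, NAT10 was the member in control, and NAT10 and YTHDC1, a nuclear reader of m6A, were members in NAT10-KD, where 1 and 2 genes had a cytidine site and 6 and 4 a listed site. Among 38 pancreatic cancer drivers, ROBO1, a receptor of SLIT ligands, held 2 control members, and ACVR2A, an activin receptor, held 1 NAT10-KD member with 0 of 20, 3 of 15 and 2 of 19 T reads; 2 and 1 driver genes had a cytidine site and 5 and 5 a listed site. Solute carriers counted 1 gene in control and 5 in NAT10-KD, with 5 and 5 having any cytidine site. Splicing factors counted 6 and 2, of 8 and 4 with a cytidine site. Both families were picked from a longer set of families counted. Some others were close to even, such as motor proteins with 2 and 2 genes and ubiquitin proteases and ligases with 4 and 3. These counts are small, stand beside the counts over all genes given above, and were not tested. None of the 10 ductal, 8 fibroblast and 6 immune marker genes held a member in either group; a cytidine site was listed in 1 fibroblast marker gene, in NAT10-KD cells.

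The highest levels stood at thinly read sites. In control, ENDOV, an endonuclease that cuts RNA at inosine, had 3 of 14, 3 of 39 and 4 of 15 T reads (18.6% ± 9.80), the highest level at any depth. Among control members with at least 100 treated reads, ZNF500 led with 2 of 32, 6 of 33 and 5 of 35 (12.9% ± 6.08), followed by MGRN1, a ubiquitin ligase, with 3 of 31, 3 of 36 and 4 of 34 (9.93% ± 1.73). ZZEF1 stood at 8.64% ± 1.93 and UTRN, the dystrophin relative utrophin, at 6.94% ± 6.18. At UTRN replicate 1 stood apart with 10 of 72 T reads, against 4 of 82 and 2 of 97. YY1AP1, ZMYND8, TCHH, STK24 and SEC23IP were also among the 10 highest, from 5.28% to 6.34%.

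In NAT10-KD cells FBXW11, a substrate receptor of a ubiquitin ligase, was highest with 3 of 31, 5 of 38 and 8 of 38 T reads (14.6% ± 5.83). HSPG2, the basement membrane proteoglycan perlecan, held adjacent members at chr1:21847424 and chr1:21847425 with 13.0% ± 6.37 and 12.4% ± 7.22. KHSRP, an RNA-binding splicing and decay factor, was the most even of them, with 3 of 41, 3 of 39 and 4 of 54 (7.47% ± 0.196). OBI1, ACTR8, GBF1, SPATA20 and separate sites outside any gene, at chr12:55730339 and chr20:36049197, made up the rest, from 5.30% to 6.19%. The lists of the 10 highest sites of the 2 groups had no gene in common. All members shared only 7 genes (3.43% of control and 4.76% of NAT10-KD genes), so nothing is read from this.

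**Figure D4:**
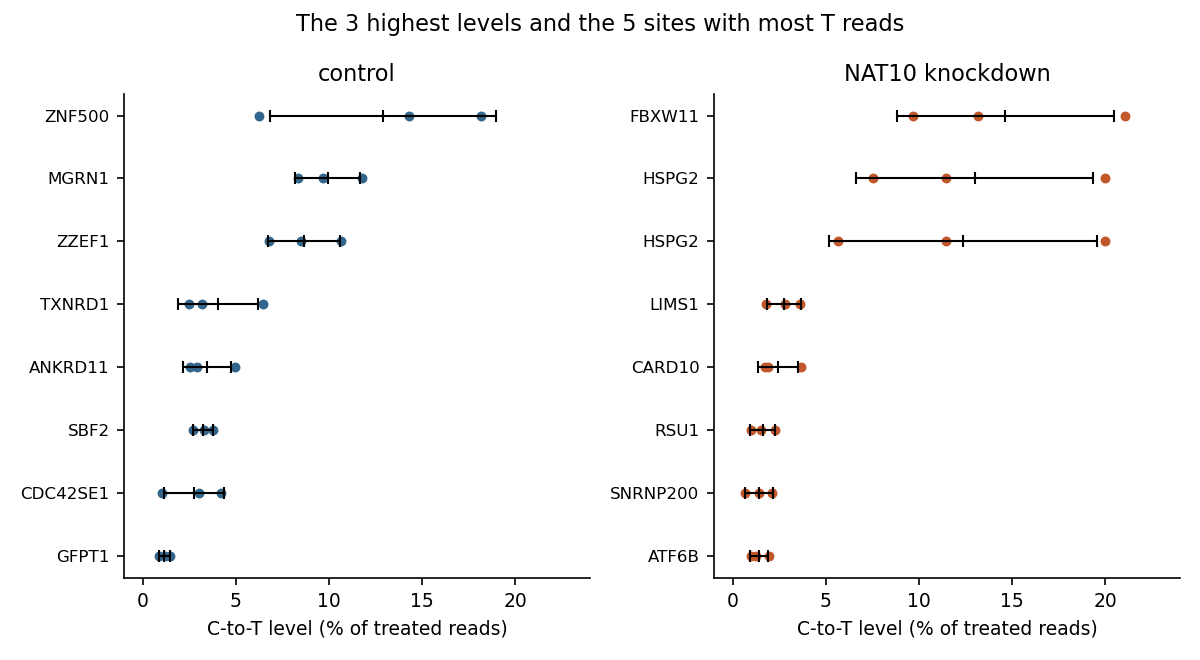
C-to-T level (percent of treated reads) at the 3 members with the highest mean level among those with at least 100 treated reads and at the 5 with the most T reads, in control (left) and NAT10 knockdown cells (right). Points are the 3 treated libraries and bars the mean ± SD; mean levels reach 12.9% and 14.6%, and the 5 sites with the most T reads lie below the 3 highest in both groups.

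The members with the most T reads had lower levels than the highest ones, at 716 to 2366 treated reads in control and 876 to 1571 in NAT10-KD cells. In control these were ANKRD11, a chromatin regulator, with 9 of 357, 10 of 340 and 14 of 283 T reads (3.47% ± 1.30), TXNRD1, the cytosolic thioredoxin reductase, with 16 of 247, 10 of 314 and 4 of 161 (4.05% ± 2.13), and GFPT1, the entry enzyme of hexosamine synthesis, with 10 of 834, 12 of 828 and 6 of 704 (1.17% ± 0.30). CDC42SE1 and SBF2 completed the control set at 2.75% ± 1.60 and 3.25% ± 0.536. In NAT10-KD cells LIMS1, an adaptor of integrin-linked kinase, had 5 of 280, 9 of 321 and 11 of 305 (2.73% ± 0.913). CARD10 followed with 6 of 315, 12 of 328 and 4 of 233 (2.43% ± 1.07), then SNRNP200, a spliceosomal helicase, with 10 of 469, 7 of 490 and 4 of 612 (1.40% ± 0.74). ATF6B and RSU1, the latter a partner of LIMS1, stood at 1.40% ± 0.486 and 1.60% ± 0.654.

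Most genes with a member held only 1: 189 of 204 in control and 143 of 147 in NAT10-KD. In control ITPR3, an IP3 receptor, and SRRM2, a splicing scaffold, held 3 each and 13 genes held 2, and in NAT10-KD cells SPATA20 held 3 and CENPF, HSPG2 and INS-IGF2 held 2. The INS-IGF2 span overlaps IGF2, and replicate 3 read these sites far more deeply (1143 and 1213 reads) than replicates 1 and 2 (from 233 to 302), at T counts of 3 and 1 against 3 to 8.

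Some members lay close to each other or to another listed site. A listed site of any base lay within 10 bases on the strand at 24 of 223 control members (10.8%) and at 24 of 156 NAT10-KD members (15.4%), against 38 of 171 (22.2%) and 32 of 136 (23.5%) of the other cytidines. Among pairs of members within 10 bases, 3 in control and 5 in NAT10-KD, the T counts were equal in every library in 1 and 2 pairs. The adjacent SBF2 cytidines at chr11:9787703 and chr11:9787704 both had 8, 7 and 8 T reads, and the adjacent cytidines before UBXN4 shown above both had 7, 3 and 3. The members of such a pair are not separate observations, and whether the T reads were the same molecules was not tested.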

How the data were processed

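NaBH4-treated and untreated libraries of 3 control and 3 NAT10 knockdown samples were used. Per the labels and the study's methods, the authors trimmed reads with fastp 0.23.1, aligned them with STAR 2.7.6a to GRCh38 (the submitters' processing notes also name featureCounts), used molecular identifiers, and called sites with JACUSA and their own test. The deposited tables hold the counts of A, C, G and T and of reference and other-base reads per site and library, and the authors' p-value for the listing; 24 columns of error rates and letter codes, and a difference column of the authors' own comparison, were not used. Base counts matched the reference and other-base columns at 100% of sites. Treated reads over all listed sites summed to between 214580 and 305063 per library, and untreated reads to between 178646 and 244199; total library depth is not given in the sources used here.

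Levels, sums and shares were computed with Python 3.11.15 (pandas 2.3.3, numpy 2.4.6, scipy 1.17.1). The functions were also run on simulated data, whose T levels were above those of most members and whose reads were at least as deep. That checked the code and not how well members are recovered at the levels found here. Genes were assigned by position from RefSeq spans, and 21-base sequences came from RefSeq gene start windows. Groups were compared over libraries by two-sided exact permutation tests. Members and gene lists were chosen with earlier results of these data known. Sites named were the 10 highest levels with at least 100 treated reads, the 5 with most T reads, the highest level, genes with several members or members in both groups, genes the study followed, listed genes, sites at the edge of the rule and neighbouring members; 1 site that this rule names is not reported here. Alternatives changed the rule of dominance, depth, T reads, neighbours, the listing p-value, the libraries left out and the pairing of numbers.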

Additional observations from a re-analysis of the deposited data

How the results depend on the processing

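Of 128 alternative values for 10 results on the groups, 110 kept their direction and, for counts, stayed within 1.5 times the value reported. With T leading in every treated library the members numbered 130 in control and 96 in NAT10-KD, all above the untreated limit. With at least 10 T reads they numbered 147 and 102, again all above it. Both settings select sites by their T reads, so nothing is read from their passing the limit. Differences in the following are NAT10-KD minus control, in percentage points, and none could pass the threshold with 3 libraries a group. Without members within 10 bases of another listed site the mean level differed by -0.11, the pooled level by -0.013 and the T share of mismatched reads by -0.12. With at least 100 reads in every treated library the pooled level differed by -0.019 and the T share by -0.29. The T share also turned to -0.14 when ties counted, to -0.67 with T leading in every library and to -0.75 by the mean of shares. The share of cytidines led by T turned to 0.51 among sites with at least 10 T reads. The cause was not tested.

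Leaving out each library in turn gave differences from 0.13 to 0.19 for the median level, 0.086 to 0.18 for the mean level, 0.0072 to 0.042 for the pooled level, -0.13 to 0.98 for the T share and -4.37 to -0.56 for the share led by T. The T share turned negative without control replicate 1 (-0.13) and without NAT10-KD replicate 3 (-0.060). Members numbered 213 to 222 in control and 147 to 158 in NAT10-KD. With the replicate number as a block, the paired differences were 0.15 for the median, 0.14 for the mean and 0.022 for the pooled level (exact sign-flip p = 0.25, the smallest 3 pairs allow), 0.37 for the T share, -2.38 for the share led by T and 2.13 for the held-out share (exact p = 0.75). The numbers could not be checked as pairs, since no member is shared between groups. Neither test could pass the threshold with 3 libraries a group, so the block could change no call. Of 95 named sites, 15 moved by over 1.5 times without 1 library, and with reads pooled the INS-IGF2 sites fell from 1.07% to 0.617% and from 1.83% to 0.858%. Few T reads limit the precision at single sites.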
